A study of Caenorhabditis elegans with 52 samples.

Results

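The C-type lectin genes of *C. elegans* were taken as the protein-coding genes whose name in the Ensembl 115 annotation of WBcel235 is clec- followed by a number. They were 240 of the 19973 protein-coding genes on chromosomes I to V and X, under 237 distinct names. Of these, 10 start inside the pair of piRNA domains of chromosome IV (positions 4800001 to 7000000 and 13500001 to 17300000 on ce11, the name used for WBcel235 in the deposited files) and 230 start outside them. Histone H3 was mapped by native ChIP-seq, in which nuclease-cut chromatin is immunoprecipitated without crosslinking, in germ nuclei isolated from young adults. Of 52 samples in the series, 16 H3 samples in 8 groups of 2 were used here, together with their 16 inputs, which the authors subtracted.

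The 8 groups were the *prde-1(mj207)V* mutant (strain SX2499) and wild type (VC2010), and strain YL701 after 3 h on 1 mM auxin or on ethanol, each at a low-salt and a high-salt wash of the immunoprecipitate (150 and 500 mM NaCl in the study's methods). YL701 carries ISW-1::eGFP::AID and the *wrdSi51* transgene, which drives the auxin receptor TIR1 from the germline promoter *mex-5p*, so its ethanol libraries carry the tag and TIR1 as well. PRDE-1 is a subunit of the complex that binds upstream of piRNA genes, and ISW-1 is the ATPase of the ISWI chromatin remodeler. The mutant becomes sterile over generations and was harvested later than wild type, so genotype and harvest time cannot be told apart. Groups follow the sample titles, although the genotype field of the high-salt wild type and *prde-1* samples and the salt field of the high-salt ethanol and low-salt auxin samples name the opposite group. The loss of PRDE-1 or of ISW-1 protein was not checked, because H3 occupancy measures neither RNA nor protein.

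C-type lectin domains are folds that in many animal proteins bind carbohydrates with the help of calcium. *C. elegans* has a very large family of genes for secreted and membrane proteins with such domains, many of which are induced in the intestine when worms meet bacterial pathogens. The same animal makes its piRNAs, called 21U RNAs, from many short transcription units that lie within and between the ordinary genes of the domains on chromosome IV, most of them behind a conserved upstream motif, the Ruby motif. A C-type lectin gene inside the domains can thus hold piRNA genes in an intron, in an exon or in the sequence upstream of it.

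Annotated 21U RNA genes were found in the windows of 8 of the 10 members inside the domains, from 500 bp upstream of the gene start to the gene end. Such genes were also found in the windows of 506 of the 798 protein-coding genes tested inside the domains. Outside the domains they were found for 8 of 221 members and 625 of 17707 protein-coding genes. The 8-base core of the Ruby motif, CTGTTTCA, was searched on both strands (its reverse complement is TGAAACAG) and occurred in the windows of 7 of these 10 members (70%), against 59.0% of the 798 protein-coding genes tested inside the domains. Outside the domains it occurred in 46 of 221 members (20.8%) and in 18.9% of 17707 protein-coding genes. In each of the 7 members a 21U RNA began 45 to 48 bases 3′ of the first base of a core. The sequence from the dyad (the centre) of the first nucleosome 5′ of the core in high-salt wild type to the end of that 21U RNA is given for all 7, because the occupancy of that nucleosome is described gene by gene below. Each runs 5′ to 3′ along the strand of the core, from the RefSeq genome of WBcel235, with the core first and the 21U RNA after it in capitals.
*clec-195*: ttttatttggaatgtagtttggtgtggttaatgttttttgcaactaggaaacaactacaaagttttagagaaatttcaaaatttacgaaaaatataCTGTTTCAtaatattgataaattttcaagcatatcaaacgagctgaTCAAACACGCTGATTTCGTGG
*clec-193*: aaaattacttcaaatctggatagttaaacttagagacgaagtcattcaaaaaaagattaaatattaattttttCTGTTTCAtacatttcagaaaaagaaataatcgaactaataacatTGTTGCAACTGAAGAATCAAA
*clec-194*: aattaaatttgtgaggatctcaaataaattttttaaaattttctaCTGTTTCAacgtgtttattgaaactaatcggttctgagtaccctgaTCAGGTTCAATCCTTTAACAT
*clec-191*: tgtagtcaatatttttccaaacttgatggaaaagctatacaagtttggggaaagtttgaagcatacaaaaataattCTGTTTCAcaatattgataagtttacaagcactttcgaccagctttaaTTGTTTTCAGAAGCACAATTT
*clec-190*: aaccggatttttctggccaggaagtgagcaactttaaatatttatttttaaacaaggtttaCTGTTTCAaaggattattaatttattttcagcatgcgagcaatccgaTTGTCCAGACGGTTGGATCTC
*clec-189*: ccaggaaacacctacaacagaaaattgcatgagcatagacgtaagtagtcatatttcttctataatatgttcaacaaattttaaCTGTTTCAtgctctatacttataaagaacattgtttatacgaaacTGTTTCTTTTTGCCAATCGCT
*clec-177*: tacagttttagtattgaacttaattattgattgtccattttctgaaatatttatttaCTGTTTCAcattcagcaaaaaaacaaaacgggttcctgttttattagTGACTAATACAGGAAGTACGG

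These stretches lie at chrIV:17045881-17046043 on the plus strand (*clec-195*, 21ur-2711), chrIV:16806009-16806147 on the minus strand (*clec-193*, 21ur-480) and chrIV:16831188-16831299 on the plus strand (*clec-194*, 21ur-11661). The others lie at chrIV:16280817-16280961 on the plus strand (*clec-191*, 21ur-12811), chrIV:15125779-15125907 on the minus strand (*clec-190*, 21ur-3208), chrIV:15122084-15122233 on the plus strand (*clec-189*, 21ur-3932) and chrIV:4986105-4986229 on the minus strand (*clec-177*, 21ur-3455). The 21U RNA lies upstream of the gene in *clec-177*, *clec-191*, *clec-194* and *clec-195*, in an intron in *clec-189* and *clec-193*, and in a coding exon in *clec-190*. It runs on the strand of its host gene in *clec-189*, *clec-190*, *clec-193* and *clec-194* and on the other strand in *clec-177*, *clec-191* and *clec-195*. The 7 stretches were chosen for an exact core with a 21U RNA start within a set range 3′ of it on the same strand. They share the core and the approximate distance largely through that choice. Their GC content ranges between 23.7% and 35.7%.

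The deposited tables list nucleosomes in rows, with the H3 signal at the summit of each nucleosome in 2 libraries, after subtraction of input and scaling to the same total. This summit signal is called occupancy here, and it has no absolute unit. The mean occupancy over all rows was between 168 and 178 in the 8 libraries, and between 18.0% and 24.2% of rows were at 0. The value of a gene is the mean occupancy of the rows in its window, its change is the log2 ratio of 2 libraries of one table after adding 1 to each, and a change counts as lower or higher from 1.5-fold (0.585 on the log2 scale). The authors merged the 2 replicates of each group before these values were made, so no spread between replicates, test or p-value can be given for any value below, and read depth is not known from the tables. Because each library is scaled to the same total, a loss of H3 over the whole genome at high salt cannot be seen in them.

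Inside the domains, 7 of the 10 members were lower by 1.5-fold or more in the *prde-1* mutant at high salt, and these were the 7 with a core. The share of lower genes among all 798 protein-coding genes tested inside the domains was 55%, and among the 471 of them with a core it was 79.6%, so most genes with a core inside the domains were lower as well. At low salt 5 of the 10 were lower, against 52.4% of all genes inside the domains and 70.1% of those with a core. The 10 members had a median change of -0.61 in the low-salt and -1.51 in the high-salt libraries, beside -0.63 and -0.78 over all genes inside the domains.

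*clec-195*, on the right arm of chromosome IV (17044739 to 17045791, minus strand), differed most. Its mean occupancy at high salt was 106 in *prde-1* and 602 in wild type, a change of -2.50 on the log2 scale, and at low salt it was 106 in *prde-1* and 356 in wild type, a change of -1.74. Its mutant value was the same at both salts to the digits given, while wild type was higher at high salt. Each library is scaled to the same total, so values at the 2 salts do not compare amounts of H3. *clec-193* (16804857 to 16806452, minus strand) had 157 in *prde-1* and 637 in wild type at high salt, a change of -2.02, and 150 in *prde-1* and 383 in wild type at low salt, a change of -1.35. It had the highest mean level of the 10 members over the 8 libraries, 1.05 above the library mean on the log2 scale.

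*clec-194* (16831666 to 16833005, plus strand) had 137 in *prde-1* and 408 in wild type at high salt (-1.57), and 88.7 in *prde-1* and 141 in wild type at low salt (-0.66). *clec-191* (16279634 to 16280714, minus strand), whose product is annotated only as a CW domain protein, had 185 in *prde-1* and 545 in wild type at high salt (-1.55), and 120 in *prde-1* and 271 in wild type at low salt (-1.16). *clec-190* (15124931 to 15126121, minus strand) had 166 in *prde-1* and 334 in wild type at high salt (-1.003), and 83.7 in *prde-1* and 196 in wild type at low salt (-1.22), the only one of the 7 with its larger difference at low salt. These 3 genes, *clec-193* and *clec-195* were the 5 members lower by 1.5-fold or more at both salts.

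The remaining members with a core had that difference at high salt only. *clec-189* (15120837 to 15122548, plus strand) had 108 in *prde-1* and 300.5 in wild type at high salt (-1.47), and 160 in *prde-1* and 235 in wild type at low salt (-0.55), short of 1.5-fold. *clec-177* (4986546 to 4987725, plus strand), a PAN domain gene in the left domain, had 86.1 in *prde-1* and 253 in wild type at high salt (-1.54), but 118.9 in *prde-1* and 69.8 in wild type at low salt, a higher value in the mutant (0.76).

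The 3 members without a core had no lower value of that size in the mutant. *clec-176* (4984046 to 4985375, plus strand), the immediate neighbour of *clec-177*, was higher in the mutant at both salts, with 107 in *prde-1* and 54.9 in wild type at high salt (0.95) and 165 in *prde-1* and 94.5 in wild type at low salt (0.80). With the point occupancy that the tables also give for each row, in place of the summit value, its high-salt change was -0.03. *clec-178* (5653949 to 5655003, plus strand) had 295 in *prde-1* and 260 in wild type at high salt (0.18), and 196 in *prde-1* and 206 in wild type at low salt (-0.07). *clec-196* (17276956 to 17277748, plus strand), 23.0 kb inside the end of the right domain, had 232 in *prde-1* and 190 in wild type at high salt (0.29), and 269 in *prde-1* and 260 in wild type at low salt (0.05). The low-salt difference of *clec-176* rests on 1 nucleosome 24 bp upstream of its start, and without its highest row the change was -0.10. Windows of *clec-178* and *clec-196* hold no annotated 21U RNA, and that of *clec-176* holds 2 without a core. Of all 327 genes inside the domains without a core, 19.6% were lower at high salt and their median change was 0.02.

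**Figure D1:**
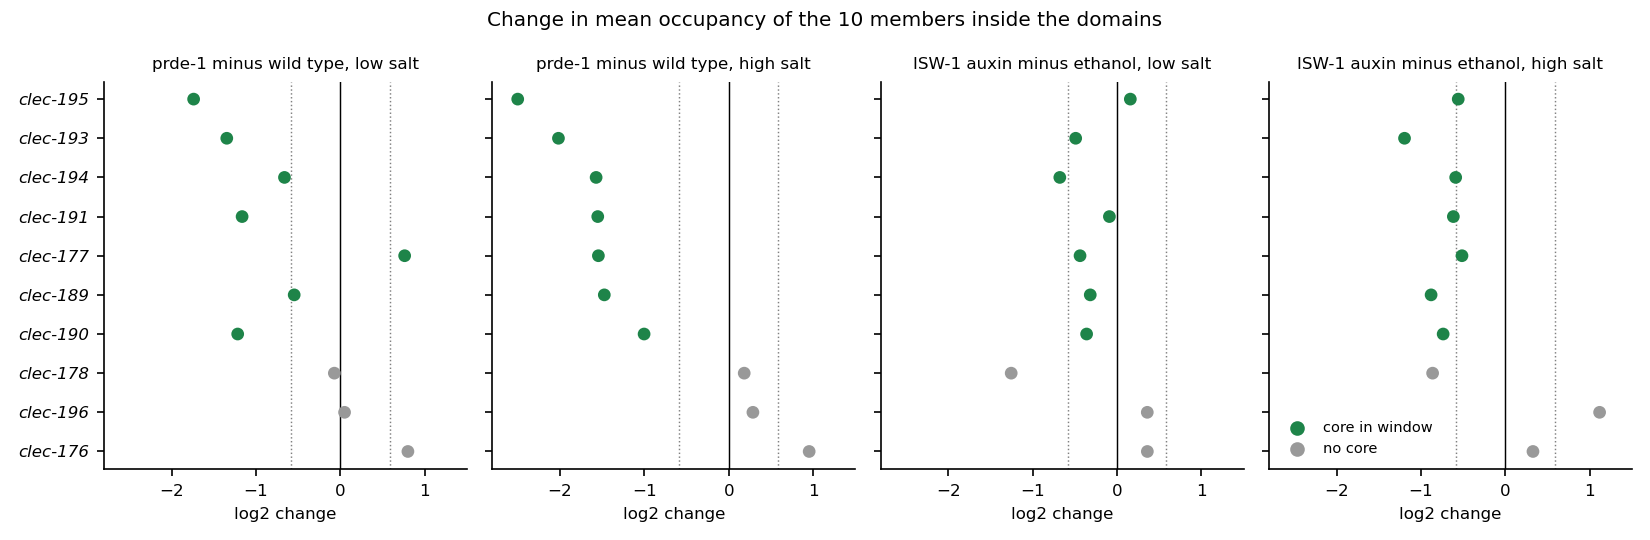
Log2 change in mean occupancy (horizontal axis) of the 10 C-type lectin genes inside the piRNA domains (rows) in each of 4 comparisons, with green points for genes with the core in their window, grey points for genes without it and dotted lines at 1.5-fold. In the *prde-1* comparison at high salt all 7 green points lie left of the lower line, from -2.50 to -1.003, and the 3 grey points lie right of 0.

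The first nucleosome 5′ of the core, chosen for description after the gene values were seen, was lower in the mutant at high salt in all 7 members with a core. At high salt its occupancy was 0 to 217 in *prde-1* and 1204 to 4327 in wild type over the 7 members, so the groups of 7 values did not overlap. Its dyad lay 45 to 96 bp 5′ of the core. In *clec-195* it had 212 in *prde-1* and 4327 in wild type, and in *clec-193* it was listed at 0 in *prde-1* and at 2488 in wild type.

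In *clec-194* that nucleosome had 29.7 in *prde-1* and 1783 in wild type, and in *clec-191* it was listed at 0 in *prde-1* and at 1674 in wild type. In *clec-190* it had 171 in *prde-1* and 1474 in wild type, in *clec-189* 217 in *prde-1* and 1467 in wild type, and in *clec-177* 83.3 in *prde-1* and 1204 in wild type. Every one of the 7 was at 1000 or more in wild type and none was in the mutant. Of all cores inside the domains, 4658 had a nucleosome row within 150 bp. At high salt 89.6% of these rows were lower by 1.5-fold or more in *prde-1*. Their medians were 99.1 in *prde-1* and 1023 in wild type, and 50.9% of them were at 1000 or more in wild type. These cores were taken with or without a piRNA gene behind them. The 7 member cores all have one, so the shares do not compare like sets. A further core in *clec-195*, without such a gene, is not among the 7. Its nucleosome had 215 in *prde-1* and 0 in wild type at high salt.

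At low salt the same nucleosome had 5.98 to 457 in *prde-1* and 353 to 1952 in wild type, and 6 of the 7 were lower by 1.5-fold or more. The share was 80.8% of the 4527 cores inside the domains with a row within 150 bp, again with or without a piRNA gene. The exception was *clec-194*, with 330 in *prde-1* and 353 in wild type, where the nearest row of the low-salt table lies 163 bp from the core and outside the window of the gene. A core with its row that far away was left out of the share over all cores. Only *clec-195* (1952) and *clec-193* (1181) were at 1000 or more in wild type at low salt, against 7 of 7 at high salt. Over all cores inside the domains the shares were 19.04% at low salt and 50.9% at high salt. These counts are on the scale of each library and do not compare amounts of H3 between the salts.

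**Figure D2:**
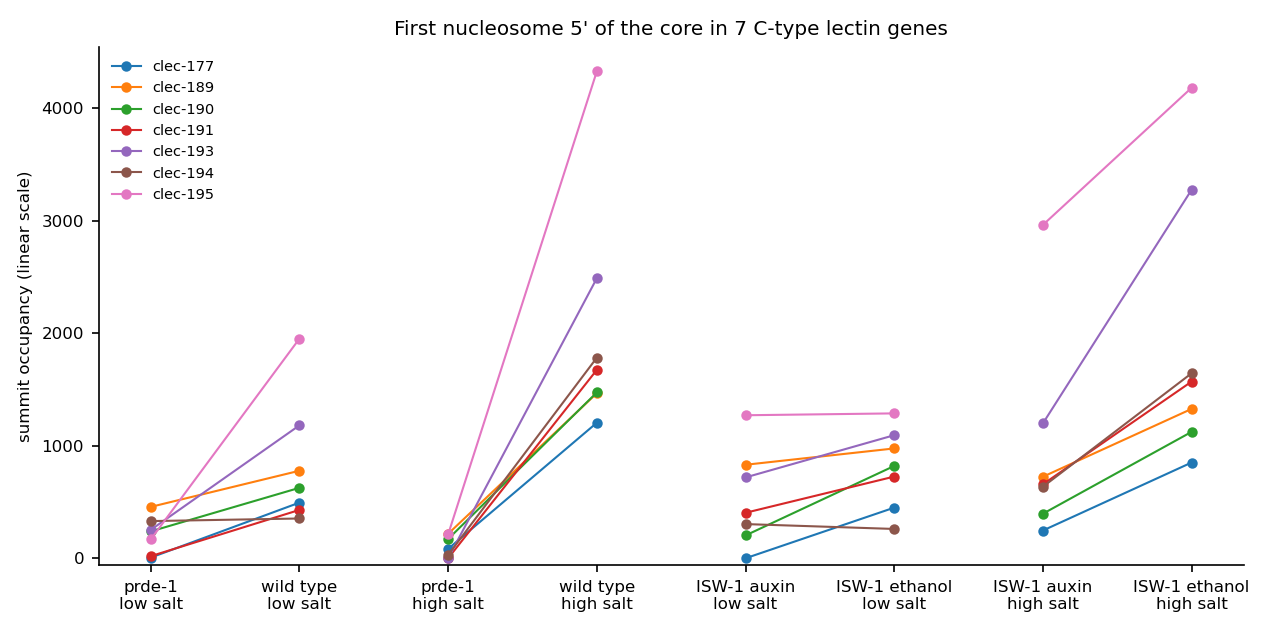
Summit occupancy (vertical axis, linear scale) of the first nucleosome 5′ of the core in 7 C-type lectin genes, one colour a gene, in the 8 merged libraries, with a line joining the libraries of each comparison. At high salt the 7 wild type points lie between 1204 and 4327 and the 7 *prde-1* points between 0 and 217.

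The means over the remaining nucleosomes of these genes were lower in the mutant at high salt, though single rows were not always. Without the row 5′ of the core, the change at high salt was -1.55 in *clec-193*, -1.26 in *clec-195*, -1.08 in *clec-189*, -1.01 in *clec-194*, -0.85 in *clec-191* and -0.76 in *clec-177*, all still past 1.5-fold. It was -0.41 in *clec-190*, which then no longer passed, and at low salt it was 2.92 in *clec-177*, higher in the mutant. In *clec-191* the nucleosome at 21ur-10096, in a coding exon, had 369 in *prde-1* and 31.9 in wild type at high salt. *clec-193* had a further tall nucleosome 257 bp upstream of its start, with 90.2 in *prde-1* and 3858 in wild type at high salt, near 21ur-1295, a 21U RNA gene for which no core was found. *clec-191* had another 440 bp upstream, with 257 in *prde-1* and 1445 in wild type. In the gene body alone, without the 500 bp upstream, the change was 0.59 in *clec-191* at high salt and 0.09 in *clec-195* at low salt, the opposite direction. With the median in place of the mean of the rows, it was 1.04 in *clec-190* at high salt. With point occupancy it was 0.18 in *clec-193* at high salt and 0.14 in *clec-195* at low salt. *clec-195* has a second core, 635 bp into the gene and with no annotated 21U RNA behind it, and the first nucleosome 5′ of that one had between 0 and 215 in all 8 libraries.

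**Figure D3:**
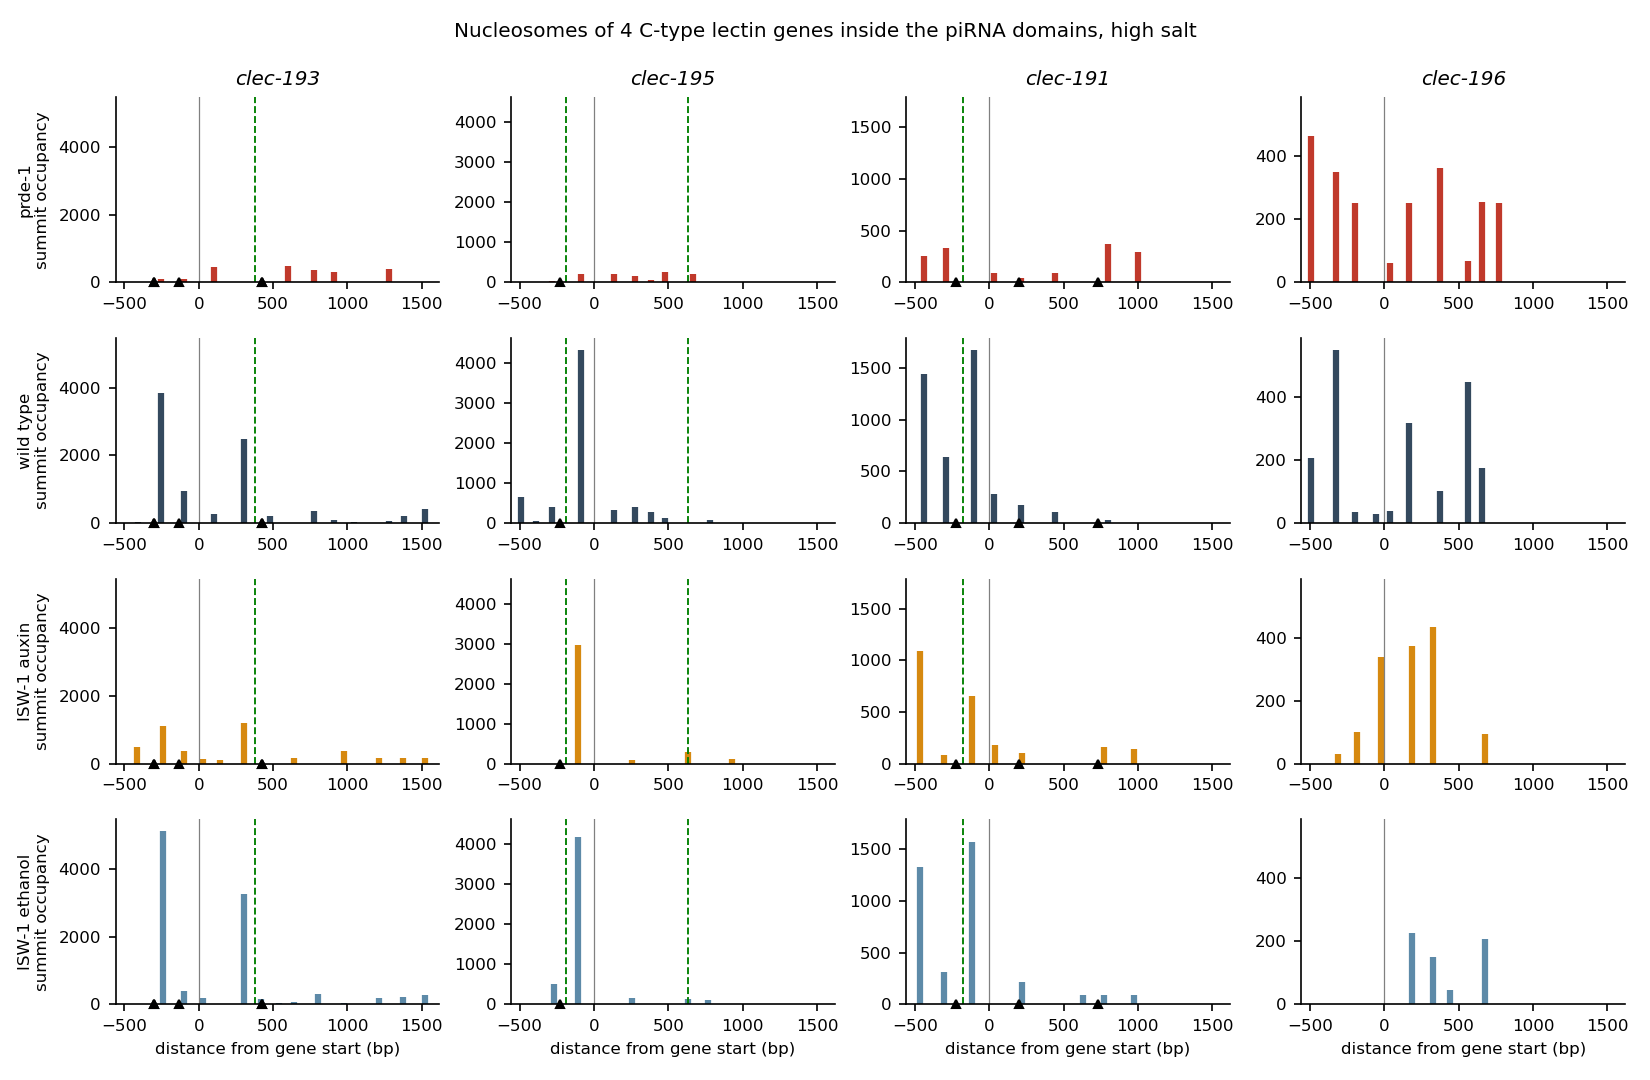
Summit occupancy (vertical axis, one scale a gene) of each nucleosome row against its distance from the gene start in bp (horizontal axis) for *clec-193*, *clec-195*, *clec-191* and *clec-196* at high salt, with rows of panels for *prde-1*, wild type, auxin and ethanol libraries. Green dashed lines mark cores, black triangles 21U RNA genes and grey lines the gene start, and the tall bars beside the upstream core of *clec-195* (212 in *prde-1*, 4327 in wild type) and the core of *clec-193* (0 in *prde-1*, 2488 in wild type) are far shorter or absent in the mutant.

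After auxin the members inside the domains had smaller differences, and mostly at high salt. At high salt 6 of 10 were lower by 1.5-fold or more than in ethanol, beside 48.7% of all genes inside the domains, and at low salt 2 of 10 were, beside 21.2%. Their median change was -0.34 in the low-salt and -0.60 in the high-salt libraries, beside -0.23 and -0.57 over all genes inside the domains. *clec-193* had the largest difference at high salt, with 321 in auxin and 737 in ethanol (-1.19), and had 364 in auxin and 512 in ethanol at low salt (-0.49). *clec-178*, which has no core, was lower at both salts, with 148 in auxin and 270 in ethanol at high salt (-0.86) and 73.8 in auxin and 177 in ethanol at low salt (-1.25). *clec-194* was the other member lower at both salts (-0.59 at high salt and -0.68 at low salt), but in its gene body alone it had 0.69 at high salt.

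*clec-195*, which differed most in the mutant, had 494 in auxin and 728 in ethanol at high salt (-0.56) and 251 in auxin and 225 in ethanol at low salt (0.16), neither of them past 1.5-fold. *clec-196* was the member that was higher, with 196 in auxin and 89.7 in ethanol at high salt (1.12) and 250 in auxin and 195 in ethanol at low salt (0.36). The first nucleosome 5′ of the core had 247 to 2963 in auxin and 851 to 4181 in ethanol at high salt, and 6 of the 7 were lower by 1.5-fold or more, beside 75.9% of 4665 cores inside the domains. The 2 ranges overlap, and *clec-195* (2963 in auxin, 4181 in ethanol) and *clec-193* (1199 in auxin, 3275 in ethanol) stayed at 1000 or more after auxin. At low salt it had 0 to 1271 in auxin and 261 to 1288 in ethanol. There 4 of the 7 were lower, beside 40.9% of 4524 cores. The shares over all cores at both salts again take cores with or without a piRNA gene behind them, unlike the 7.

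Salt retention is the relative level of a gene (its mean occupancy over that of its library, log2) at high salt minus that at low salt, taken across 2 tables that were normalized separately. The 10 members had a median retention of 0.02 in the mutant and 0.73 in wild type, beside 0.12 and 0.43 over all genes inside the domains. In wild type 6 of the 10 were more retained by 1.5-fold or more, beside 35.6% of all genes inside the domains. The genes most retained in wild type were *clec-177* (-0.47 in the mutant, 1.83 in wild type), *clec-194* (0.61 in the mutant, 1.51 in wild type) and *clec-191* (0.61 in the mutant, 0.99 in wild type). The lowest wild type values were those of *clec-176* (-0.79) and *clec-196* (-0.46), both without a core. The medians were -0.03 in auxin and 0.52 in ethanol, and in ethanol 5 of 10 were more retained, beside 48.6% of genes inside the domains. The median of all genes inside the domains was 0.55 in ethanol.

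The members outside the domains nearest to their edges had changes in both directions. Beyond the end of the right domain, *clec-197* (46.7 kb outside) had changes of -0.47 with low salt and -0.64 with high salt in the mutant, *clec-198* (47.2 kb) -0.25 and -0.11, *clec-199* (51.9 kb) 0.63 and 0.00, and *clec-202* (61.4 kb) -0.86 and -1.14. Of these, *clec-197*, *clec-199* and *clec-202* have annotated 21U RNA genes in their windows but no core, and *clec-202* was lower at both salts although it lies outside the stated edge. Before the start of the left domain, the nearest member outside, *clec-175*, lies 378 kb away, with changes of 0.11 and -0.29. Beyond the end of the left domain, *clec-179* (185 kb) had -0.87 with low salt and 2.12 with high salt. Before the start of the right domain, *clec-187* (629 kb) had -0.20 and 0.59, and *clec-186* (634 kb) 0.40 and -0.10.

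Outside the domains, 221 members had at least 5 nucleosome rows in each table, and they had low H3 occupancy for protein-coding genes in all 8 libraries. At low salt the median relative level of the members was -0.76 in *prde-1* and -0.70 in wild type, and -0.73 in auxin and -0.68 in ethanol, beside -0.29, -0.31, -0.26 and -0.28 for the 17707 protein-coding genes outside the domains. At high salt it was -0.44 in *prde-1* and -0.31 in wild type, and -0.52 in auxin and -0.92 in ethanol, beside -0.16, -0.23, -0.20 and -0.40. In low-salt wild type 196 of the 221 members (88.7%) lay below the mean of the library. Wild type at high salt was the library in which members and other genes lay closest together, and ethanol at high salt the one in which they lay furthest apart.

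Other lists give the scale of this difference. The 215 *srh* chemoreceptor genes, another large family concentrated on chromosome arms, had medians of -0.67 in wild type and -0.61 in ethanol at low salt, and 71 genes of antimicrobial effector families (lysozymes, saposin-like proteins and others) had -0.51 and -0.48. The 66 ribosomal protein genes had 1.06 and 1.19, and a mixed list of 12 immune regulators had -0.07 and -0.03. That list holds genes of the p38 pathway, which acts upstream of many infection-induced C-type lectin genes, and genes of other pathways, such as *daf-16*. Of the members, 165 (74.7%) lie on chromosome arms, against 54.01% of all genes, but members on arms (-0.67 in low-salt wild type) and in chromosome centres (-0.84) were both low, while all genes on arms had -0.23 and in centres -0.40. Tandem groups were defined as 3 or more members in a row, each within 20 kb of the next. The 102 members in such groups had a median of -0.88 in low-salt wild type, and the other members -0.59. The windows of the members outside the domains have a median GC content of 37.8%, against 35.8% for all genes. Over these members GC content and level had a Pearson correlation of 0.03 in low-salt wild type and -0.40 in low-salt auxin. Over all protein-coding genes outside the domains it was -0.07 and -0.47. These values are given as a description over genes that share libraries.

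**Figure D4:**
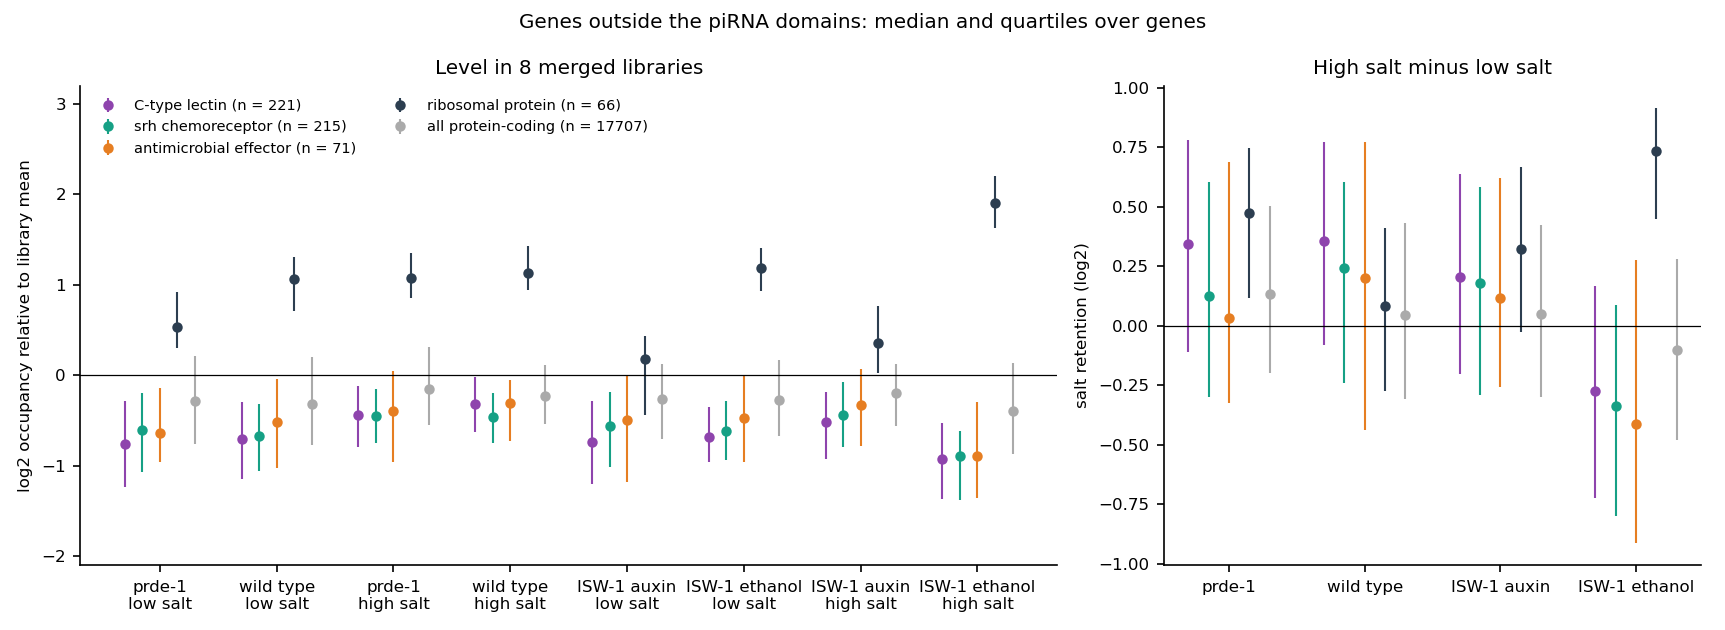
Left, median log2 occupancy relative to the library mean (points) with quartiles over genes (bars) for 5 gene lists outside the piRNA domains in the 8 merged libraries; right, salt retention (log2, high salt minus low salt) of the same lists. The 221 C-type lectin genes (purple) lie below all protein-coding genes (grey) in each library, with medians from -0.92 to -0.31, and their retention is above that of all genes except in ethanol (-0.27 beside -0.10).

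The spread among members was wide. *clec-87* on chromosome I (10184462 to 10185520) had the highest mean level over the 8 libraries, 1.46 above the library mean on the log2 scale, followed by *clec-125* (0.78) and *clec-113* (0.46). *clec-87* had 373 in *prde-1* and 548 in wild type at low salt, and 989.6 in *prde-1* and 553 in wild type at high salt. It had 196 in auxin and 514 in ethanol at low salt, and 303 in auxin and 749.98 in ethanol at high salt. The lowest mean levels were those of *clec-45* (-1.90), *clec-251* (-1.86) and *clec-158* (-1.58). *clec-45* has only 5 rows in its smallest table, and its occupancy was 22.0 in *prde-1* and 21.3 in wild type at low salt, and 15.25 in *prde-1* and 63.2 in wild type at high salt. *clec-251* had 119.3 in auxin and 6.18 in ethanol at high salt, the largest change of any member in any comparison (4.07), and 21.3 in auxin and 109.5 in ethanol at low salt (-2.31), the opposite direction.

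Within the members' windows, nucleosome rows at 0 were more frequent than in other genes. The median member had 28% of its rows at 0 in *prde-1* and 24.1% in wild type at low salt, beside 20% and 18.8% over all genes, and 25% in auxin and 33.3% in ethanol at high salt, beside 22.2% and 23.1%. The spacing of neighbouring summits, taken as the median gap of up to 300 bp, was 175.5 to 181.5 bp over the 8 libraries for the median member and 172 to 182.5 bp for the median gene. The fuzziness score, in which a higher value means a less sharply positioned nucleosome, was 31.7 to 35.8 for the median member and 35.1 to 37.8 for the median gene. Around the gene start, the rows of the members in low-salt wild type had a mean level of -0.01 from 200 to 100 bp upstream, -0.75 in the last 100 bp before the start and -0.90 in the first 100 bp after it, beside 0.16, -0.09 and 0.06 for the rows of all genes.

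In the *prde-1* mutant more members outside the domains were lower than the background share, at both salts. At low salt 48 of 221 (21.7%) were lower by 1.5-fold or more and 23 (10.4%) were higher, beside 12.4% lower and 9.4% higher over all genes. At high salt 47 (21.3%) were lower and 22 (9.95%) higher, beside 9.17% and 12.3%. The median change was -0.04 at low salt (95% interval over genes, -0.14 to 0.04), beside 0.01 over all genes, and -0.17 at high salt (-0.24 to -0.07), beside 0.09. The interval is the exact binomial one for a median over genes taken as independent. It gives neither the spread among the genes nor that between replicates. The windows of 49 of the 221 members overlap that of another member, so the members are not separate observations. The changes of the same members at the 2 salts had a Pearson correlation of -0.03 outside the domains, given as a description over 221 genes, against 0.70 over the 10 inside. All protein-coding genes had a like contrast, with 0.08 outside and 0.65 inside. Lower at both salts were 13 members (5.88%, against 2.06% of all genes): *clec-29*, *clec-33*, *clec-38*, *clec-51*, *clec-117*, *clec-157*, *clec-164*, *clec-166*, *clec-202*, *clec-207*, *clec-233*, *clec-239* and *clec-241*. Higher at both was *clec-52* alone (0.45%, against 1.45% of all genes), and 13 members passed in opposite directions at the 2 salts (5.88%, against 2.67%), as many as were lower at both.

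The largest falls in the mutant at high salt, among members with the same sign at low salt, were those of *clec-242*, *clec-256* and *clec-137*. *clec-242* on chromosome V (17243598 to 17245506) had 61.0 in *prde-1* and 243 in wild type at high salt (-1.97), but 147 in *prde-1* and 150.2 in wild type at low salt (-0.03). *clec-256*, near the right end of chromosome V, had 53.7 in *prde-1* and 155 in wild type at high salt (-1.51), and *clec-137* on chromosome II had 64.3 in *prde-1* and 163 in wild type (-1.33). At low salt these 2 had changes of -0.25 and -0.03, so the high-salt differences of all 3 genes were not seen at 1.5-fold at low salt. In the other direction, *clec-106* on chromosome I had 205 in *prde-1* and 65.3 in wild type at high salt (1.63), *clec-114* 301 in *prde-1* and 130.4 in wild type (1.20), and *clec-173* 214 in *prde-1* and 100.1 in wild type (1.09). Their low-salt changes were 0.51, 0.05 and 0.52, and the high-salt change of *clec-173* was -0.16 in its gene body alone.

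Medians of the tandem groups lay on either side of 0 in the mutant. They were 0.41 at low and 0.55 at high salt for *clec-213* to *clec-215*, and -0.36 and -0.39 for *clec-228* to *clec-231*. A tandem group of 4 members on chromosome V (16733821 to 16741588) had lower values in the mutant, with a median change of -0.77 at low salt (range -1.12 to -0.02) and -0.76 at high salt (range -0.96 to -0.59). It holds *clec-38*, *clec-34*, *clec-29* and *clec-39*, and neighbouring windows in such a group can share nucleosome rows, so its members are not separate observations. *clec-38*, which encodes a transmembrane protein that acts in netrin-guided axon growth, had 57.4 in *prde-1* and 126 in wild type at low salt (-1.12), and 87.0 in *prde-1* and 166 in wild type at high salt (-0.93). It was lower in auxin as well, with 70.2 in auxin and 122 in ethanol at low salt (-0.79) and 47.2 in auxin and 74.7 in ethanol at high salt (-0.65), so that it passed 1.5-fold in all 4 comparisons. Members of the largest tandem groups differed in both directions, since the 13 members on chromosome V from 16839121 to 16869840 had changes between -0.74 and 1.33 with low salt and between -1.60 and 0.66 with high salt, and the 12 on chromosome IV from 3922165 to 4014235 had -1.41 to 0.72 and -0.48 to 0.50.

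**Figure D5:**
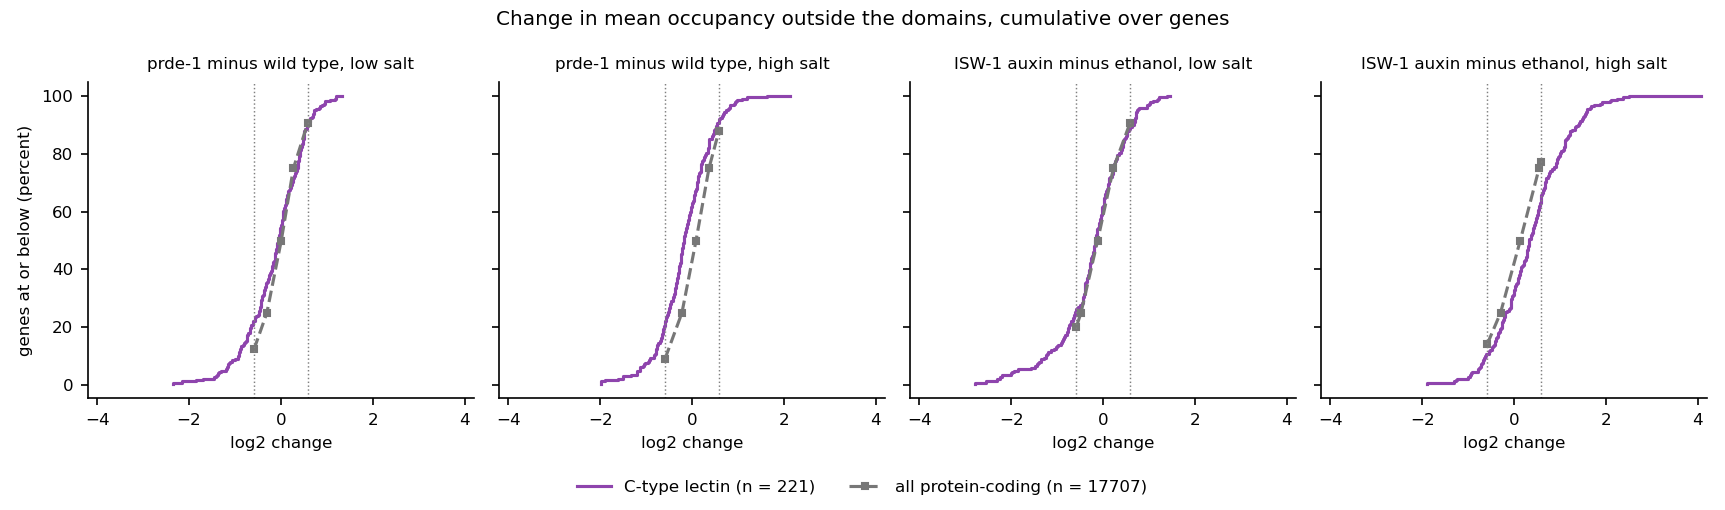
Cumulative share of genes (vertical axis, percent) at or below a log2 change in mean occupancy (horizontal axis) outside the piRNA domains in 4 comparisons, for 221 C-type lectin genes (purple steps) and for all 17707 protein-coding genes (grey squares at the quartiles and at the 1.5-fold limits, joined by dashes), with dotted lines at 1.5-fold. In *prde-1* at high salt the members lie left of all genes (medians -0.17 and 0.09), and in auxin at high salt they lie right of them (medians 0.33 and 0.13).

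Among the other members with a known role, the infection-induced intestinal gene *clec-60* had 35.0 in *prde-1* and 117 in wild type at low salt (-1.71) but 126 in *prde-1* and 127 in wild type at high salt (-0.01). *clec-39* and *clec-49*, mutants of which are more sensitive to *Serratia marcescens*, had low-salt changes of -0.02 and 0.05, and high-salt changes of -0.59 and -0.61. *clec-67* and *clec-85*, used as reporters of p38 signalling, had low-salt changes of -0.48 and 0.04, and high-salt changes of -0.24 and -0.21. *clec-4*, *clec-41* and *clec-42*, which have been studied in defence against *Bacillus thuringiensis*, had changes between -0.31 and 0.47 over both salts, none past 1.5-fold.

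After auxin the members outside the domains had a median below that in ethanol at low salt and above it at high salt, as had all genes, and their medians lay further from those of all genes at high salt. At low salt 56 of 221 (25.3%) were lower and 25 (11.3%) higher than in ethanol, beside 19.9% and 9.48% of all genes, and the median change was -0.16 (-0.26 to -0.06), beside -0.12. At high salt 23 (10.4%) were lower and 81 (36.7%) higher, beside 14.2% and 22.9%, and the median was 0.33 (0.25 to 0.47), beside 0.13. After centring each comparison on the median of all genes, which removes a shift of more than 0.1, 20.8% of members were lower and 15.4% higher at low salt, beside 15.5% and 13.3% of all genes, and 13.1% were lower and 29.0% higher at high salt, beside 18.7% and 17.3%. The *srh* genes had a like shift at high salt, with a median of 0.46 and 89 of 215 higher, and the effector families had 0.30, while the ribosomal protein genes had -1.37. Over the members, GC content and the change had a Pearson correlation of -0.32 at low salt and -0.05 at high salt. Over all protein-coding genes outside the domains it was -0.36 and -0.12. A part of GC content in the result was not tested.

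The largest falls after auxin at high salt, among members with the same sign at low salt, were those of *clec-21*, *clec-87* and *clec-88*. *clec-21* on chromosome II had 43.3 in auxin and 165 in ethanol at high salt (-1.91), and 80.3 in auxin and 151 in ethanol at low salt (-0.90). With point occupancy its low-salt change was 0.44, the opposite direction. *clec-87*, described above as the member with the highest level, had changes of -1.31 at high salt and -1.39 at low salt, and *clec-88* had 128 in auxin and 309.5 in ethanol at high salt (-1.27). Of the higher ones, *clec-217* had 175 in auxin and 57.2 in ethanol at high salt (1.60) and 136 in auxin and 58.9 in ethanol at low salt (1.20). *clec-241* had 99.0 in auxin and 32.2 in ethanol at high salt (1.59), and *clec-225* 337 in auxin and 117 in ethanol (1.52). Lower at both salts were 10 members (4.52%, against 6.16% of all genes) and higher at both 9 (4.07%, against 3.77%), shares near those of all genes.

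Of the members with a known role, *clec-4*, *clec-60*, *clec-41* and *clec-39* were higher by 1.5-fold or more after auxin at high salt, as were 22.9% of all genes. *clec-4* had 111 in auxin and 201 in ethanol at low salt (-0.86), but 102 in auxin and 49.7 in ethanol at high salt (1.03). *clec-60* had 67.5 in auxin and 31.0 in ethanol at high salt (1.10), *clec-41* 136 in auxin and 70.6 in ethanol (0.94), and *clec-39* 117 in auxin and 69.2 in ethanol (0.75). *clec-42*, *clec-49*, *clec-67* and *clec-85* had changes between -0.07 and 0.47 at high salt.

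Between the salts, the members outside the domains were more retained than other genes in 3 of the 4 groups and less retained in ethanol. In the mutant 75 of 221 (33.9%) were more retained by 1.5-fold or more and 16 (7.24%) less, beside 21% and 7.08% of all genes, and the median was 0.35 (0.17 to 0.46), beside 0.13. In wild type 76 (34.4%) were more and 14 (6.33%) less retained, beside 18.1% and 11.2%, and the median was 0.36 (0.23 to 0.43), beside 0.05. In auxin 63 (28.5%) were more and 33 (14.9%) less retained, beside 17.7% and 11.4%, and the median was 0.20 (0.10 to 0.33), beside 0.05. In ethanol 18 (8.14%) were more and 71 (32.1%) less retained, beside 12.2% and 19.8%, and the median was -0.27 (-0.34 to -0.21), beside -0.10. Wild type and ethanol are both controls, but of different strains, and the ethanol strain carries the tag and TIR1. Correction for GC content is certain only for wild type of these 2. A part of these differences in the result was not tested. Over the 221 members the retentions in wild type and ethanol had a Pearson correlation of 0.07, against 0.47 over the 10 members inside the domains. Over all protein-coding genes it was 0.08 outside and 0.42 inside. The *srh* genes followed the members in sign (0.24 in wild type and -0.33 in ethanol), and the ribosomal protein genes did not (0.08 and 0.74).

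The most retained members in wild type with the same sign in ethanol were *clec-37* (2.72), *clec-252* (2.23) and *clec-58* (2.12). *clec-37* on chromosome V had 184 at high salt and 79.1 at low salt in the mutant, and 212 at high salt and 30.9 at low salt in wild type. Its retention was 1.20 in the mutant, -0.57 in auxin and 0.46 in ethanol. *clec-58* on chromosome II had 210.04 at high salt and 47.0 at low salt in wild type, with retentions of 1.00 in the mutant, -0.66 in auxin and 0.22 in ethanol. The least retained were *clec-114* (-1.41), *clec-103* (-1.23) and *clec-150* (-1.20). *clec-114*, a PAN domain gene with 20 rows in its smallest table, had 301 at high salt and 357 at low salt in the mutant, and 130.4 at high salt and 345 at low salt in wild type, and its retention was negative in all 4 groups.

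Of the 240 members, 9 loci outside the domains had too few rows to be described. *clec-100*, *clec-133* and *clec-134* had 4 rows in their smallest table. *clec-15*, *clec-209* and *clec-249* are each annotated at 2 positions, and the copies, of 1371, 1257 and 391 bp, are identical without a mismatch and had 0 rows at all 6 positions. The occupancy of these 6 loci cannot be read from the tables. Of the 240, 207 have a product annotated as a C-type lectin; the others carry names such as PAN-3 domain protein (14), VWFA domain protein (8) or CW domain protein (5), and the 29 of them described outside the domains had a median *prde-1* change of -0.17 at high salt with 4 lower (13.8%), beside -0.17 and 43 lower (22.4%) for the 192 named C-type lectins and 9.17% lower over all genes.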

How the data were processed

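The 240 members and all gene lists were chosen with earlier results of these data known. The authors aligned reads with Bowtie2 to ce11, removed duplicates, merged the 2 replicates of a group, corrected for GC content (stated for native ChIP-seq, but certain here only for the *prde-1* and wild type tables) and ran DANPOS3 on mononucleosomal fragments with input as control; MACS2 is also named per the labels, and versions are not given in the sources used here. Each of the 4 deposited tables holds 2 libraries, with the summit and point occupancy of each nucleosome as a signal, its fuzziness as a score and its dyad as a position in bp. The deposited tables also hold fold changes, differences and p-values or false discovery rates of the authors' own comparisons, which were not used. The 20 samples of other assays were not used, and 0 columns of values had no sample group.

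Rows whose centre lay between 500 bp upstream of the gene start and the gene end were averaged per gene, with the Ensembl 115 genes and the RefSeq genome of WBcel235. Genes needed at least 5 rows in each of the 4 tables, 1 was added before log2, and 1.5-fold was the limit for a call. Medians have exact binomial 95% intervals over genes. With 1 merged library a group, no test was run. Members named were those inside the domains, 9 with a known role, and outside the domains the 3 most extreme in each direction for high-salt changes with the same sign at low salt, wild type retention with the same sign in ethanol, and mean level; others were named after their values were seen. The analysis of nucleosomes 5′ of the core was added after the data were seen. Alternatives changed the gene summary, pseudocount, window, filters, fold, centring, overlap and occupancy measure. The scripts used python 3.11.15, numpy 2.4.6, pandas 2.3.3, scipy 1.17.1 and matplotlib 3.10.9. They were tested on known fold changes put into deposited values, and the interval and spacing on made-up values.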

Additional observations from a re-analysis of the deposited data

Results flagged for a closer look

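Outside the domains the median salt retention of the 221 members was 0.36 in wild type and -0.27 in ethanol, controls of different strains. The 2 have opposite signs, as have the medians of all genes (0.05 in wild type and -0.10 in ethanol). After auxin their median change was -0.16 with the low-salt wash and 0.33 with the high-salt wash, beside -0.12 and 0.13 over all genes, which have the same signs. Inside the domains, *clec-177* had changes in *prde-1* of 0.76 (low salt) and -1.54 (high salt). Outside them, *clec-4* had changes after auxin of -0.86 (low salt) and 1.03 (high salt). With 1 merged library a group, none of these differences was tested.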

How the results depend on the processing

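Of 68 medians recomputed under an alternative, 56 stayed within the spread allowed, 12 moved and 0 reversed; of 152 counts 110 stayed within 1.5 times, and of 1007 values of named genes 13 reversed. Centred on all genes, high-salt *prde-1* had a median change of -0.26, auxin had -0.0435 with low and 0.20 with high salt, and the ethanol retention was -0.17. With a fold of 2, 19 members were lower and 5 higher in low-salt *prde-1*, 16 and 4 in high-salt *prde-1*, 28 and 7 in low-salt auxin, 5 and 46 in high-salt auxin; 3 were less and 36 more retained in wild type, 5 and 34 in *prde-1*, 27 and 7 in ethanol, 11 and 36 in auxin. Of the changes, in the same order, 8.60% of members were lower and 2.26% higher, 7.24% and 1.81%, 12.7% and 3.17%, and 2.26% and 20.8%, beside 3.83% and 2.72%, 2.77% and 2.98%, 7.76% and 2.98%, and 5.69% and 9.14% of all genes. With the median of rows, the low-salt median change was -0.17 in *prde-1* and -0.31 in auxin, with 78 lower and 46 higher in *prde-1* and 95 and 48 in auxin; all genes then had a median of -0.32 in low-salt auxin, below that of the members, and 20.3% higher in low-salt *prde-1*, beside 20.8% of members; with high salt 40 were higher in *prde-1* and 48 lower in auxin. Retention then had medians of 0.52 in *prde-1* and -0.53 in ethanol, with 28 less retained in wild type, 25 in *prde-1*, 107 less and 42 more in ethanol and 97 more in auxin; *clec-190* had 1.04 in *prde-1* and *clec-194* 0.57 in auxin at high salt. In the gene body only, 13 were higher in high-salt *prde-1* and the wild type retention was 0.43; *clec-176* had -0.22 and *clec-195* 0.0921 in low-salt *prde-1*, *clec-191* 0.59 and *clec-173* -0.16 in high-salt *prde-1*, and *clec-191* 0.20 and *clec-194* 0.69 in high-salt auxin. With rows of mean occupancy of at least 50 (164 members), 30 were lower in low-salt *prde-1*, 27 in high-salt *prde-1* and 36 in low-salt auxin (18.3%, 16.5% and 22.0%, beside 10.8%, 7.82% and 18.5% of 15431 genes); the wild type retention was 0.23 with 40 more, 39 were more retained in *prde-1*, 42 less and 10 more in ethanol, and 17 less in auxin. With point occupancy, the median was -0.19 in low-salt *prde-1* and 0.55 in high-salt auxin; 81 were lower and 53 higher in low-salt *prde-1*, 81 and 44 in high-salt *prde-1*, and 53 higher in low-salt auxin; all genes then had 27.8% lower and 28.0% higher in low-salt *prde-1*, 22.8% and 33.9% in high-salt *prde-1* and 27.1% higher in low-salt auxin, so the share of higher members (24.0% in low-salt *prde-1* and in low-salt auxin) lay below that of all genes, where with summit occupancy it lay above; *clec-195* had 0.14 in low-salt *prde-1*, *clec-176* -0.0279 and *clec-193* 0.18 in high-salt *prde-1*, and *clec-21* 0.44 in low-salt auxin. Among members that overlap no other, 15 were higher in auxin at low salt. Without its highest row, chosen after seeing the data, *clec-176* had -0.10 in *prde-1* at low salt. The cause of these differences was not tested.

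No paired analysis was possible because the 2 replicates of each group were merged before the tables were made, and no replicate could be left out for the same reason. Read depth is not known, so precision per gene is not known either. Spacing stayed within the spread allowed in 2 of 16 recomputations and fuzziness in 13 of 20.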

Other observations

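By chromosome, the C-type lectin genes outside the domains differed in level. In low-salt wild type the median relative level was -0.42 for the 33 on chromosome I and -0.91 for the 43 on chromosome IV, beside 0.03 and -0.22 for all genes outside the domains there. The 82 on chromosome V had -0.73, beside -0.50. After auxin at high salt, 43 of the 102 members in tandem groups (42.2%) were higher than in ethanol by 1.5-fold or more, and 38 of the other members (31.9%), beside 22.9% of all genes.

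The level of the members in wild type and in ethanol, controls of different strains, had a Pearson correlation of 0.56 at low salt and 0.20 at high salt over 221 genes, as a description. *clec-179*, 185 kb beyond the end of the left domain, was higher in *prde-1* at high salt by 2.12 and lower by 0.87 at low salt on the log2 scale.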
